A study of Rattus norvegicus with 44 samples.

Results

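H4-II-E-C3 is an established cell line from a rat hepatoma, a liver tumor, and it still expresses many hepatocyte genes. Flasks were exposed for 24 h to sodium dichromate at 1 µM, called chromium 1 µM here, in medium without serum. All concentrations named for the metals are those of their salts. The comparison described here is that of 4 arrays of chromium 1 µM with 8 control arrays of unexposed cells, 12 arrays of 44 in the series. The other arrays used below are those of chromium at 0.275 and 10 µM, nickel at 140 µM and cadmium at 0.55 µM, with 4 arrays each. Each condition had 4 replicates and each replicate had 2 control arrays. Whether the control arrays of a replicate came from separate flasks is not stated in the sources used here, so the mean of both was counted as 1 sample. The middle concentration of each metal was chosen in the study for the same partial loss of viable cells, and 1 µM was that concentration for chromium. All cells are of a single tumor line, and its responses are not those of a liver with its other cell types.

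The 12 arrays were selected on measured values, and their conditions depart in part from the deposited labels. They were chosen by the order of the sample titles, with the 4 titles of repeated arrays moved to the end, so that each title was paired with the value column at the same place. The order was kept because it was checked against values. Over 992 probe sets that the study lists as changed by any of the metals, the condition means differed from the listed ones by at most 7.5e-06 on the log2 scale under the order, and by up to 4.32 under the labels. Of the 12 arrays, 4 have another condition by label than by order. All 4 are in replicates 3 and 4 by the numbers of the order, though not all by their labels. The check covers conditions and does not settle which array belongs to which replicate number. In replicates 1 and 2 the labels and the order give the same condition to the 2 chromium 1 µM arrays and the 4 control arrays. These 2 replicates were therefore also fitted alone, with groups set by the labels. For probe sets on the list, which checked the order, values over 4 replicates are described without a test. Tests over 4 replicates are given for the other probe sets only. The labels call the replicates biological without naming separate cultures, and the p-values measure the spread between these samples, which may be partly technical.

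Hexavalent chromium enters cells as chromate through anion carriers and is reduced inside them, which generates reactive oxygen species and chromium bound to DNA. The transcription factor NRF2, held down by KEAP1 in unstressed cells, induces enzymes of glutathione, thioredoxin and quinone metabolism upon oxidative stress. E2F factors drive the genes that load and fire replication origins at the entry into S phase. All values below are log2 intensities of single probe sets, and a difference of 1 on this scale is a 2-fold difference. Levels of different probe sets are not compared with each other. In RNA from whole flasks, fewer cells expressing a gene and less RNA per cell cannot be told apart.

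Differences at 1 µM were small. Over 15521 probe sets with the higher mean values, the median absolute log2 change against control was 0.0733. It was 0.0848 at 0.275 µM and 0.196 at 10 µM. At least 1.5-fold differences from control were found for 5 probe sets that were higher and 6 that were lower at 1 µM, against 650 and 784 at 10 µM. As a background, the second control arrays were set against the first ones of the same replicate, which gave a median absolute log2 difference of 0.0439, with 1 probe set higher and 2 lower by 1.5-fold. Chromium 1 µM against the first control arrays alone gave 0.0768, with 5 and 10 probe sets past 1.5-fold. With limma, 0 of 15521 probe sets differed between the control arrays at an adjusted p under 0.05, and 547 had an unadjusted p under 0.05. This was a separate paired fit of the control arrays, with listed probe sets included. Its counts therefore cannot be set against those of chromium 1 µM outside the list.

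Outside the list, 2 of 14642 probe sets passed an adjusted p of 0.05 at chromium 1 µM against control, or 0.0137%, with the adjustment over all 15521. Adjusted over the 14642 alone, which the listed probe sets cannot influence, 1 passed. It was Cp, the copper-carrying plasma ferroxidase ceruloplasmin, which fell. The other was Cryl1, lambda-crystallin, a gulonate dehydrogenase of the glucuronate pathway, which was higher and passed under the first adjustment only. The number with an unadjusted p under 0.05 was 1031, and none passed the threshold of the methods, an adjusted p of 0.001 with a 1.8-fold change. The Cryl1 values were 6.06, 6.05, 6.14 and 6.06 in the 4 chromium arrays, while the control arrays ran from 5.33 over a median of 5.56 to 5.80. All 4 chromium values were above all 8 control values. The log2 change of Cryl1 was 0.53 with an SE of 0.08 and an adjusted p in limma of 0.0398 over all probe sets and of 0.113 over those outside the list. Cp had values of 5.87, 5.84, 5.59 and 5.73 in the chromium arrays, while the control arrays had a median of 6.22 and a highest value of 6.45. Here too the groups did not overlap. Cp fell by 0.47 on the log2 scale, with an SE of 0.06 and adjusted p of 0.0209 and 0.0394 in the same order. Both probe sets were dim and lay near the filter, a mean of at least 5.96 over all 44 arrays. Cryl1 had a mean of 5.55 in the controls and Cp a mean of 5.76 at 1 µM. These 2 means are under the filter value and under the array medians, which ran from 5.93 to 5.99. Both calls rest on all 4 replicates. The count was 0 when any single replicate was left out and 0 without the replicate number in the fit, although both genes kept their direction in 4 of 4 replicates. With the 8 control arrays entered as separate samples the count was 44. With the arrays grouped as labelled it was 0, and the differences were 0.61 for Cryl1 and -0.47 for Cp.

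The genes next in order of p outside the list did not pass. On the higher side they were Inpp5e, a phosphoinositide phosphatase of the primary cilium, with a log2 difference of 0.32 (adjusted p = 0.0832), Prkar2b, a regulatory subunit of protein kinase A, with 0.40, the transcription factor Rfx1 with 0.32, and Sqstm1, the autophagy receptor p62, with 0.31. Sqstm1 has a second probe set, with 0.29, that is on the study's list. The Inpp5e values of the 4 chromium arrays, from 7.97 to 8.01, lay above the highest control value of 7.76. On the lower side they were Dusp6, the phosphatase of ERK kinases, with -0.51, Narf with -0.35, Pigc, of GPI anchor synthesis, with -0.32, and Rwdd2b with -0.30. Dusp6 varied most among these, by -0.19, -0.35, -0.92 and -0.58 in replicates 1 to 4, and its other probe sets gave -0.47 and -0.26. Narf had a second probe set with -0.39.

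In replicates 1 and 2 alone, where the labels set the groups and the fit had 3 residual degrees of freedom, 1 of 15521 probe sets passed, or 0.00644%, and 1169 had an unadjusted p under 0.05. It was a probe set of the list that names several genes and is given without a gene name, with a log2 difference of -0.99 (SE 0.08, adjusted p = 0.0220). Next was Mug1, murinoglobulin, a protease inhibitor of rat plasma, with -0.89 and an adjusted p of 0.0755, which did not pass. Cryl1 was 0.42 higher and Cp 0.42 lower there, with adjusted p of 0.481 and 0.501. The study chose its list on these same arrays, so that the presence of Mug1 on it is no independent evidence.

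Of the 992 listed probe sets, 879 were among the 15521. At chromium 1 µM 412 of them were higher and 467 lower than control, with log2 differences from -0.99 to 0.91 and a median absolute difference of 0.141, beside 0.0709 outside the list. In 4 of 4 replicates 180 were higher and 175 were lower. Only 5 were at least 1.5-fold higher and 5 at least 1.5-fold lower. The plot of changes in each replicate shows the 8 highest and 8 lowest of these genes.

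The highest of the listed genes was Ugt2b7, a UDP-glucuronosyltransferase that conjugates steroids and drugs. Its values were 11.59, 11.12, 10.22 and 9.93 in the chromium arrays and 8.07 to 11.11, with a median of 9.84, in the control arrays, so the groups overlapped. Within replicates it was higher by 0.53, 0.44, 1.21 and 1.46, with a mean of 0.91. The quinone reductase Nqo1 had 11.08, 11.05, 11.75 and 11.38 at 1 µM, all above the highest of the control values, which ran from 10.39 over 10.71 to 10.87. Nqo1 was higher by 0.39 and 0.28 in replicates 1 and 2 and by 0.91 and 0.86 in replicates 3 and 4. Klf5, a zinc finger transcription factor of proliferating epithelia, was at 6.80, 6.53, 6.48 and 6.57, also above all control values, of which the highest was 6.28. Bcs1l, an assembly factor of respiratory complex III, was 0.59 higher, Kctd15 was 0.51 higher and Gli4 0.47 higher. Atad5, which unloads the replication clamp, was 0.50 higher, and its second probe set was 0.47 higher. The small MAF protein Maff, a partner of NRF2 on DNA, was 0.48 higher with an SD of 0.07 over the 4 replicates.

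The lowest of the listed genes was Mug1. It was at 5.92, 5.65, 6.22 and 5.58 in the chromium arrays, below all control arrays, which ran from 6.56 over 6.83 to 7.26. The differences were -0.83, -0.94, -0.82 and -1.39, with a mean of -0.99. The glucose transporter Slc2a2 was 0.77 lower, with 5.52, 6.54, 6.91 and 6.78 against control values from 6.44 to 7.72. The fatty acid binding protein Fabp1 was at 8.09 and 8.67 in replicates 1 and 2 but at 10.57 and 10.77 in replicates 3 and 4, and the control arrays spanned 9.13 to 11.40. The level of Fabp1 thus differed more between replicates than between groups, while within each replicate it was lower, by 1.04, 0.68, 0.64 and 0.28 on the log2 scale. Other plasma proteins among the lowest were complement component C5 with -0.54, the inter-alpha-trypsin inhibitor chain Itih2 with -0.51 and the protease inhibitor Serpina3n with -0.48. Igfbpl1 was 0.53 lower. Ankrd37, a gene known from hypoxia, was 0.61 lower, by 0.46, 0.54, 0.53 and 0.90 in replicates 1 to 4.

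**Figure D1:**
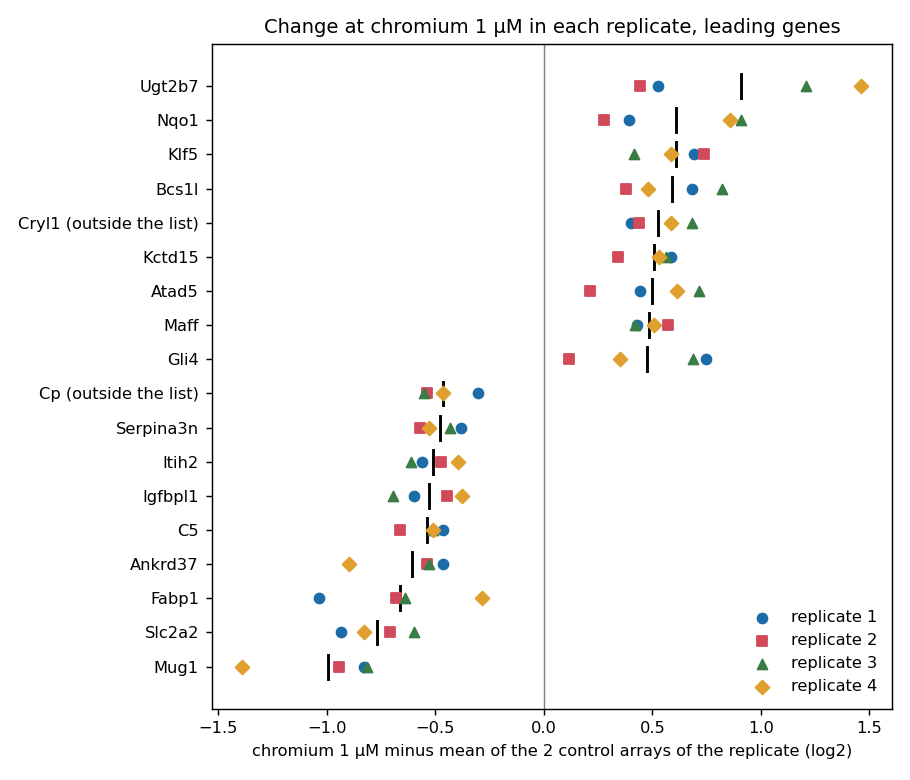
Log2 change at chromium 1 µM against the mean of both control arrays of the same replicate (x axis) for the 16 leading genes of the study's list and Cp and Cryl1 outside it (y axis). Symbols stand for the 4 replicates and black bars for their mean. All points lie on 1 side of 0 for each gene. The changes of Ugt2b7 and Nqo1 were larger in replicates 3 and 4 than in replicates 1 and 2, and Fabp1 ran from -1.04 to -0.28.

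Gene lists were described by their counts and medians, with 1 probe set per gene. Over all 8934 genes the median log2 change was 0.01, with 4903 genes higher and 4031 lower. In 4 of 4 replicates 17% were higher than the control of their replicate and 8.67% were lower. Of the 8367 genes outside the list, 4620 were higher and 3747 lower. Among these, 16.7% of the 8367 were higher and 7.84% lower in 4 of 4 replicates. With an unadjusted p under 0.05, 459 genes outside the list were higher and 194 lower. No member of any gene list passed the adjusted threshold outside the list except Cp.

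The NRF2 targets had the highest median of the lists. Of 30 genes, 28 were higher and 19 were higher in 4 of 4 replicates, with a median of 0.21 and replicate medians of 0.16, 0.23, 0.24 and 0.30. Replicates 1 and 2 alone gave a median of 0.21, and the arrays as labelled 0.25. The study had chosen 12 of the genes on these arrays, which makes their direction no independent evidence. Of the 17 genes with no probe set on the list, 15 were higher, 10 in 4 of 4 replicates, and 7 had an unadjusted p under 0.05. Beside Nqo1 and Maff, the aldo-keto reductase Akr1b8 was 0.46 higher and thioredoxin reductase Txnrd1 0.44 higher. The glutathione transferase Gsta3 was at 10.23, 10.06, 9.79 and 9.61 in the chromium arrays and at 8.67 to 10.00 in the control arrays, a difference of 0.49 that did not pass (adjusted p = 0.264). Heme oxygenase Hmox1 was higher by 0.41, 0.42, 0.48 and 0.40, although its levels of 8.47 to 9.22 overlapped the control levels of 8.05 to 8.86. The mRNA of NRF2 itself, Nfe2l2, was lower by 0.12, 0.13, 0.07 and 0.08 in the 4 replicates, which did not pass (adjusted p = 0.681). Slc7a11, the cystine importer, went both ways, with 0.40 and 0.62 in replicates 1 and 2 and 0.03 and -0.21 in replicates 3 and 4.

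An NRF2 motif, written TGACNNNGC and searched on both strands, was looked for after the values were seen. It was found in 7 of the 27 NRF2 targets with an entry among RefSeq promoters of build GRCr8 (250 bases before to 50 after the start), or 25.9%, and in 12.2% of all 27457 promoters. The 2 members with the motif and the largest differences were Gsta3 and Ugdh, the dehydrogenase that makes UDP-glucuronate. Ugdh was 0.45 higher (adjusted p = 0.137), with 12.82, 12.81, 13.01 and 12.83 against control values from 12.13 to 12.59. Their windows of 130 bases are shown 5′ to 3′ on the strand of the gene, with the motif in capitals, to let the sites be seen. A match is a description of the letters and not a bound site.
Gsta3, GRCr8 chr9:31154889-31155018, plus strand: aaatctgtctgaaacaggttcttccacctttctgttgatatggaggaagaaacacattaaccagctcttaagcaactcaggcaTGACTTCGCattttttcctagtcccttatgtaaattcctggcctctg
Ugdh, GRCr8 chr14:43202291-43202420, plus strand: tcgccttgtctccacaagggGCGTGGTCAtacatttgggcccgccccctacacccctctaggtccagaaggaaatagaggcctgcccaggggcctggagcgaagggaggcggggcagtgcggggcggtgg

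Of 30 genes of the replication fork, 28 were higher and 25 in 4 of 4 replicates, with a median of 0.19 and replicate medians of 0.19, 0.16, 0.21 and 0.21. The median was 0.17 in replicates 1 and 2 alone and 0.35 with the arrays as labelled. The study had chosen 12 of these genes on these arrays. Of the other 18, 16 were higher, 14 in 4 of 4 replicates, and 3 had an unadjusted p under 0.05. The catalytic and accessory subunits of the replicative polymerases, Pold1, Pole2, Pold2 and Pole, were higher by 0.39, 0.39, 0.35 and 0.33. The sliding clamp Pcna had 11.60, 11.55, 11.88 and 11.44 at 1 µM and control values from 10.67 over 11.35 to 11.54. It overlapped the controls and was higher by 0.21, 0.16, 0.50 and 0.56 within replicates. The histone chaperone subunit Chaf1b was 0.36 higher with an SD of 0.03 over replicates. Single-strand binding protein Rpa2 was 0.25 higher, by 0.26, 0.27, 0.22 and 0.22. DNA ligase Lig1 was 0.31 higher on 1 probe set and 0.10 higher on another, which was lower in replicate 3.

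Of 19 genes of origin licensing and the MCM helicase, 18 were higher and 11 in 4 of 4 replicates, with a median of 0.18, of 0.13 in replicates 1 and 2 alone and of 0.35 as labelled. Only 7 of them had no probe set on the list, and 3 of these were higher in 4 of 4 replicates. Cdt1, which loads the helicase, was 0.38 higher, with 7.35, 7.35, 7.34 and 7.11 against control values from 6.51 over 7.02 to 7.13. The helicase subunits were higher by 0.35 for Mcm2, 0.29 for Mcm5, 0.29 for Mcm3, 0.27 for Mcm7, 0.15 for Mcm6 and 0.12 for Mcm4. Mcm10 was 0.13 higher on 1 probe set and 0.22 higher on another. Mcm8 had a mean difference of 0.02, with 0.31, -0.05, -0.18 and 0.00 in the 4 replicates. The G1/S list of cyclins and nucleotide supply had a median of 0.10 over 22 genes, with 10 higher in 4 of 4 replicates. The 16 outside the list had a median of 0.07, with 6 higher in 4 of 4 replicates. The E cyclins Ccne2 and Ccne1, both on the list, were 0.30 and 0.28 higher.

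Letter forms of the E2F site, TTTCCCGC, TTTGGCGC and TTTCGCGC, were searched on both strands of the same promoter windows. They were found in 12 of 16 licensing genes, or 75%, in 9 of 29 fork genes, or 31%, and in 5 of 15 G1/S genes, or 33.3%, beside 1.82% of all promoters. The 3 members with a site and the largest differences are shown, with sites in capitals. In Mcm2 sites on both strands overlap, and the capitals span both. Windows here and above lie within the searched stretch.
Pole2, GRCr8 chr6:93435332-93435461, minus strand: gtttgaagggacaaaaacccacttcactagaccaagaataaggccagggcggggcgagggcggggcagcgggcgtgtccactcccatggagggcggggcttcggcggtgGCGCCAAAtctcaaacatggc
Cdt1, GRCr8 chr19:67529149-67529278, plus strand: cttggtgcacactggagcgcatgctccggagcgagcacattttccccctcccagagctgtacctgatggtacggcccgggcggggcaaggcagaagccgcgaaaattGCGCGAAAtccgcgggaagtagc
Mcm2, GRCr8 chr4:122918065-122918194, minus strand: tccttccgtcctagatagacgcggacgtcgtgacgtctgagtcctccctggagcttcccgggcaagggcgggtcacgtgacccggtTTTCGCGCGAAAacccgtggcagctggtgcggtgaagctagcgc

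Mitotic genes stood largely outside the study's list. Of 31 genes of mitosis and cytokinesis, 30 were outside it, and all 31 were higher at 1 µM, 18 of them in 4 of 4 replicates. The median was 0.19, with replicate medians of 0.19, 0.13, 0.29 and 0.17, and it was 0.15 in replicates 1 and 2 alone and 0.13 as labelled. Of the 30, 18 had an unadjusted p under 0.05, and the lowest adjusted p was 0.235. It belonged to Racgap1, which organizes the central spindle, with 9.33, 9.24, 9.66 and 9.35 in the chromium arrays, all above the control values, which ran from 8.82 over 9.12 and ended just under the lowest chromium value. Its second probe set was 0.22 higher (adjusted p = 0.625), and there the chromium values, from 7.87, overlapped the control values, up to 8.06. The mitotic kinase Cdk1 was 0.30 higher, and the kinetochore protein Cenpf and the spindle protein Nusap1 were 0.27 higher each. None of these passed.

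Among repair genes the lists differed in their counts. Recombination and Fanconi anemia genes act on crosslinks and on breaks at forks. Of 28 such genes, 23 were higher and 15 in 4 of 4 replicates, with a median of 0.15, of 0.19 in replicates 1 and 2 alone and of 0.24 as labelled. Outside the list it was 0.11 over 24 genes, with 12 higher in 4 of 4 replicates. Fancb and Rad52, both on the list, were 0.42 and 0.37 higher, and Fancd2 was 0.33 higher with an adjusted p of 0.288. The list of excision and mismatch repair with end joining had a median of 0.05 over 35 genes, with 11 higher in 4 of 4 replicates. Ddb2, a damage sensor of nucleotide excision repair and a p53 target, was 0.27 higher, with 6.84, 6.78, 6.74 and 6.78 above control values of 6.39 to 6.60 (adjusted p = 0.305). The p53 targets as a list had a median of 0.02 over 19 genes, with 3 higher and 3 lower in 4 of 4 replicates, and of 0.24 as labelled. Cdkn1a, the p53-induced inhibitor of cyclin-dependent kinases, was lower by 0.05, 0.14, 0.44 and 0.20 (adjusted p = 0.783).

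**Figure D2:**
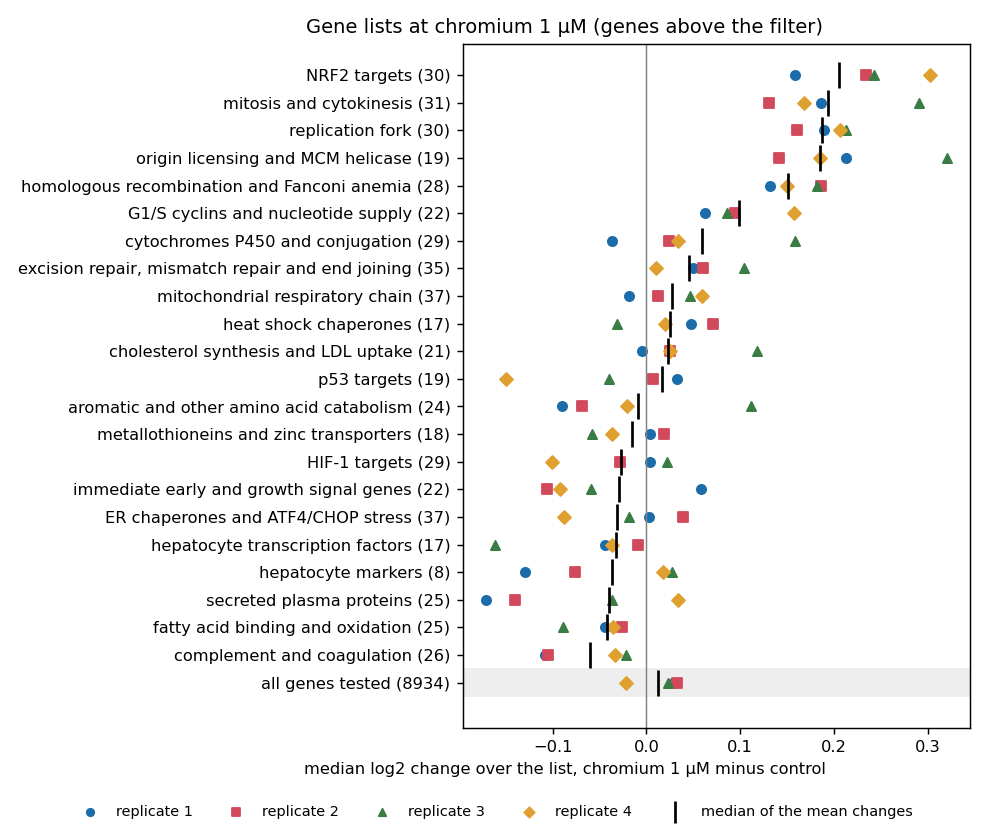
Median log2 change at chromium 1 µM against control (x axis) for each gene list with at least 8 genes measured and for all 8934 genes, with the number of genes in brackets (y axis). Symbols are the medians in the 4 replicates and black bars the medians of the mean changes. All 4 replicate medians of the replication, G1/S, mitosis, recombination, excision repair and NRF2 lists lie above those of all genes. Most of the other lists have replicates on both sides of 0.

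The lists tied to metal binding, hypoxia and protein damage had medians between -0.03 and 0.03. As labelled, heat shock chaperones had 0.19 and the ER and ATF4/CHOP list 0.14, the latter with the other sign. Metallothioneins and zinc transporters had a median of -0.02 over 18 genes, with 1 higher and 3 lower in 4 of 4 replicates. Mt2A, the main inducible metallothionein, was higher by 0.05, 0.18, 0.45 and 0.50. HIF-1 targets had a median of -0.03 over 29 genes and heat shock chaperones 0.03 over 17. The list of ER chaperones and ATF4/CHOP stress had a median of -0.03 over 37 genes, of which 11 were lower in 4 of 4 replicates, 10 of them outside the study's list. The ER chaperone Hspa5 was at 11.96, 12.03, 11.83 and 11.85, and the control median was 12.13 (difference -0.20, adjusted p = 0.539). All 4 chromium values were below the control values, but the highest, 12.0286, was only just under the lowest control value of 12.0312. Immediate early and growth signal genes had a median of -0.03 over 22 genes, and Egr1 was 0.34 lower (adjusted p = 0.603).

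In the complement, plasma protein, amino acid and fatty acid lists the lowest member was on the study's list. Cp, a plasma protein outside it, fell by 0.47. Of the 17 hepatocyte transcription factors 0 were on the study's list, and their lowest, Onecut1, was 0.35 lower (adjusted p = 0.456). Of 26 complement and coagulation genes, 20 were lower and 10 in 4 of 4 replicates, with a median of -0.06, of -0.11 in replicates 1 and 2 alone and of -0.32 as labelled. The second control arrays differed from the first by a median of -0.08 over the same genes, which is more than the -0.06. Of the 12 of these outside the list, 8 were lower, 1 of them in 4 of 4 replicates. C5, C9 and the fibrinogen chain Fga were lower by 0.54, 0.41 and 0.39 on the log2 scale. C5 was at 7.22, 7.13, 6.79 and 7.05 against control values from 7.29 over 7.62 to 7.89. Secreted plasma proteins had a median of -0.04 over 25 genes and of -0.17 in replicates 1 and 2 alone, and their replicate medians of -0.17, -0.14, -0.04 and 0.03 differed in sign. In the amino acid list, the decarboxylase Ddc was lower by 0.71, 0.45, 0.51 and 0.14, and the peroxisomal oxidase Hao1 by 0.58, 0.48, 0.24 and 0.20, while the median over 24 genes was -0.01. Fatty acid genes had a median of -0.04 over 25 genes with 8 lower in 4 of 4 replicates, and hepatocyte transcription factors a median of -0.03 over 17. The medians were 0.06 for 29 cytochrome P450 and conjugation genes, 0.02 for 21 cholesterol genes and 0.03 for 37 genes of the respiratory chain.

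Hepatocyte markers were present, with 8 of 10 on the array above the filter. Their mean over the list ran from 10.15 to 10.22 in the chromium arrays and from 10.11 to 10.32 in the control arrays. Albumin had a mean level of 14.61 at 1 µM and 14.55 in controls. Of the markers of other cells, 1 of 9 for stellate cells and fibroblasts, 2 of 8 for macrophages and leukocytes and 0 of 5 for endothelium were above the filter. Their list means overlapped between groups, with 5.13 to 5.26 at 1 µM against 5.14 to 5.41 in controls for stellate cells, 5.26 to 5.55 against 5.27 to 5.46 for macrophages and 4.59 to 4.82 against 4.69 to 4.85 for endothelium.

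Between 0.275 and 1 µM no probe set outside the list differed with limma (lowest adjusted p = 0.708, with 651 at an unadjusted p under 0.05). Against the shared controls, the median of the NRF2 targets was 0.21 at 0.275 µM, 0.21 at 1 µM and 0.53 at 10 µM. Replication fork genes had 0.07, 0.19 and 0.81, licensing genes 0.04, 0.18 and 0.88, and mitotic genes -0.02, 0.19 and 0.44. Complement and coagulation genes had -0.02, -0.06 and -0.75. For single genes the 3 values were 0.09, 0.38 and 1.89 for Cdt1, 0.15, 0.35 and 1.28 for Pcna, 0.47, 0.61 and 0.93 for Nqo1, 0.49, 0.49 and 0.72 for Gsta3, and -0.59, -0.99 and -2.58 for Mug1.

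The contrast of 10 with 1 µM uses no control value, although control samples were in the fit and add to its variance and replicate terms. In it, 2832 of 14642 probe sets were higher at 10 µM, or 19.3%, and 2382 were lower, or 16.3%. Outside the list, 10 of 18 fork genes, 6 of 8 licensing genes and 15 of 30 mitotic genes were higher at 10 µM, and 2 fork, 2 licensing and 0 mitotic genes were lower. Of the plasma proteins 11 of 15, of complement and coagulation 9 of 12 and of cholesterol synthesis 13 of 20 were lower at 10 µM. The p53 targets had 11 of 15 higher at 10 µM. Their median difference was 0.39 over all 19, of which 4 were on the study's list. The NRF2 targets were split, with 7 of 18 higher and 4 lower, among them the malic enzyme Me1, which was 0.28 higher than control at 1 µM and 0.07 lower than control at 10 µM. A second probe set of Me1 was 0.38 higher at 1 µM (adjusted p = 0.123). The largest differences outside the list were those of the growth-inhibitory factor Klf10, at a mean of 6.02 at 1 µM and 7.29 at 10 µM, and of Hpd, of tyrosine breakdown, at 6.85 and 5.72.

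**Figure D3:**
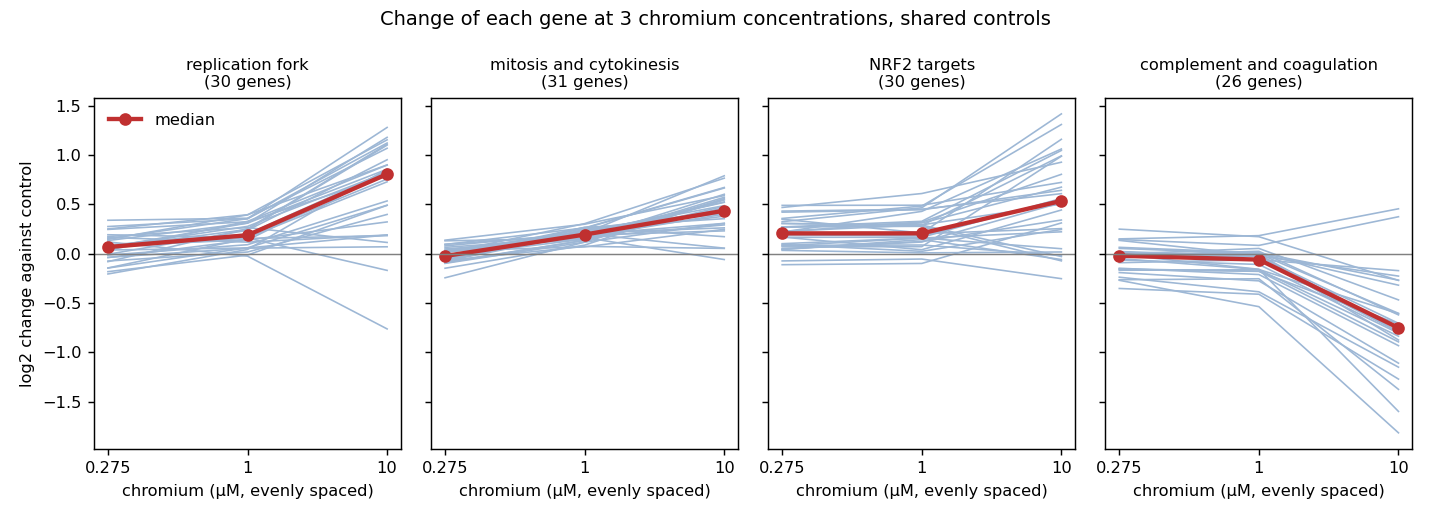
Log2 change against the same controls (y axis) at chromium 0.275, 1 and 10 µM (x axis, evenly spaced) for the genes of 4 lists. Thin lines are genes and the thick line is their median. NRF2 targets have the same median of 0.21 at 0.275 and 1 µM, whereas the median of mitotic genes goes from -0.02 to 0.19. The median of complement genes stays near 0 up to 1 µM, while single genes of that list do not all do so.

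Chromium 1 µM was set against nickel 140 µM and cadmium 0.55 µM, the concentrations chosen for the same partial loss of viable cells. Concentrations differ, so these are comparisons at that level of loss and not at a matched dose. No control value enters the contrasts, although control samples were in the fit. The contrasts alone do not show which of the metals departs from control. Against nickel, 173 of 14642 probe sets were higher in chromium, or 1.18%, and 311 lower, or 2.12%. Outside the study's list, 8 of 18 replication fork genes were higher in chromium than in nickel, and 5 of 24 recombination genes. So were 5 of 16 G1/S genes and 5 of 30 mitotic genes. These 4 lists had 0 calls the other way. Rad54l, a motor protein of recombination, was 0.59 higher (SE 0.11, adjusted p = 0.00111). Its means were 6.24 in control, 6.51 in chromium and 5.91 in nickel. Of the HIF-1 targets outside the list, 5 of 10 were lower in chromium than in nickel, namely Gpi, Aldoa, Pgam1, Eno1 and Plod1, and the median difference was -0.42 over these 10. Over all 29 it was -0.85, and the study had chosen 19 of these on arrays that include nickel. The glycolytic enzyme Gpi had a mean of 10.91 in chromium and 11.67 in nickel, and Aldoc had 6.86 and 7.82. The control means were 10.94 for Gpi and 6.93 for Aldoc. Among the largest differences on the other side were the carbonic anhydrase Car2, 0.79 higher, and the retinal dehydrogenase Aldh1a1, 0.86 higher in chromium than in nickel. Car2 had means of 10.86 in control, 11.32 in chromium and 10.54 in nickel. For Aldh1a1 these were 6.72, 7.04 and 6.18.

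Against cadmium, 236 of 14642 probe sets were higher in chromium, or 1.61%, and 585 were lower, or 4%. Outside the study's list, 5 of 18 fork, 6 of 16 G1/S and 5 of 24 recombination genes were higher in chromium, with 0 calls the other way. Of the 30 mitotic genes outside the list, 23 were higher in chromium than in cadmium, with a median difference of 0.45 over all 31. Against control, the median of these 31 genes in chromium was 0.19. The topoisomerase Top2a had a mean of 9.66 in chromium and 8.96 in cadmium (difference 0.70, SE 0.10), and Nusap1 was 0.68 higher. The control mean of Top2a was 9.50. Nusap1 had means of 8.78 in control, 9.05 in chromium and 8.37 in cadmium. The stress-induced pseudokinase Trib3 was 1.00 lower in chromium than in cadmium on its leading probe set (adjusted p = 0.0227). Its means were 7.37 in control, 7.25 in chromium and 8.25 in cadmium. Aldh1a1 was 0.81 lower than in cadmium, the reverse of its difference from nickel. The NRF2 targets had median differences of -0.02 from nickel and -0.06 from cadmium, beside -0.01 and -0.06 over all genes. Of the 18 outside the list, 1 was higher in chromium than in nickel and 2 were lower than in cadmium.

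**Figure D4:**
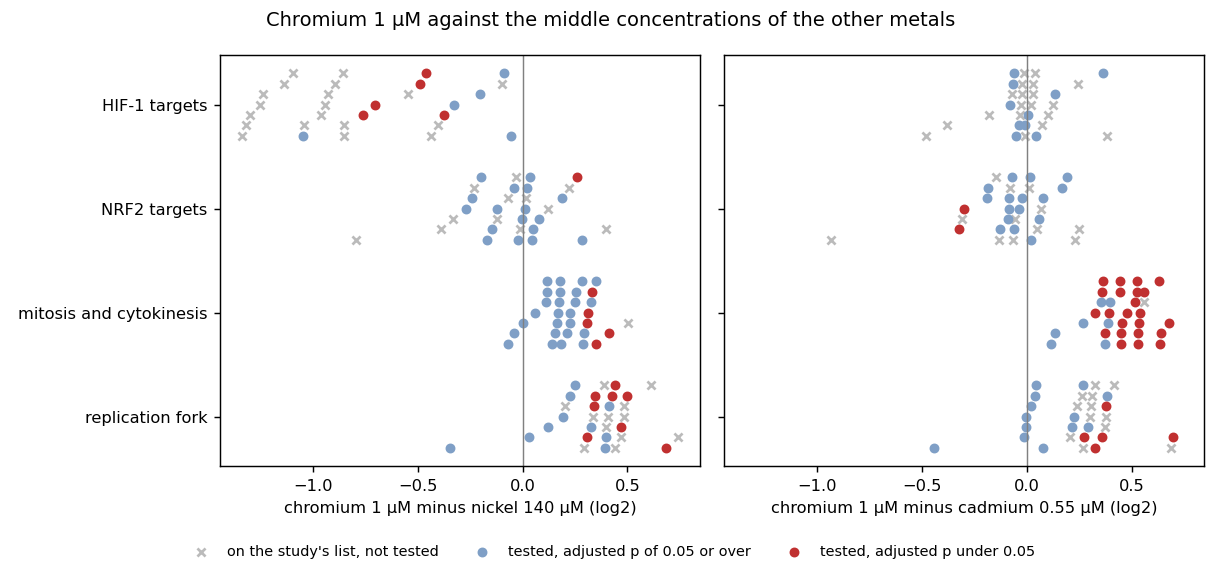
Log2 difference of chromium 1 µM from nickel 140 µM (left) and cadmium 0.55 µM (right) on the x axis, for genes of 4 lists (y axis, points spread vertically for display). Red points passed an adjusted p of 0.05, blue points did not, and grey crosses are genes of the study's list, which were not tested. Against cadmium, 23 mitotic genes passed, and HIF-1 targets have a median of -0.85 against nickel and of -0.01 against cadmium.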

How the data were processed

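RNA of all flasks was hybridized to Affymetrix rat whole-genome arrays. The authors made the deposited log2 intensities by RMA (background adjustment, quantile normalization and summarization over all arrays) in Partek, per the submitters' processing notes, so values are relative across arrays and small differences of dim probe sets are compressed. The array medians ran from 5.93 to 5.99.

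Of 31042 probe sets that are not array controls, the 15521 with the higher mean over all 44 arrays (at least 5.96) were kept, in place of the detection calls named in the methods, which were not used here. Symbols came from the platform annotation, updated through gene IDs to RefSeq. In all 20826 probe sets named 1 gene, 436 several and 9780 none.

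limma 3.58.1 in R 4.3.3 was fitted to 16 samples, the 3 chromium concentrations and the mean control of each replicate, with concentration and replicate as terms. Comparisons with nickel and cadmium used 40 samples. Benjamini-Hochberg adjustment was over all 15521 probe sets, and a call is an adjusted p under 0.05. As p-values of listed probe sets influence this adjustment, it was repeated over the 14642 others alone. The replicate number entered as a block, since the analysis of variance in the methods holds batch beside dose. Deviations of the chromium 1 µM sample and the control of the same number correlated at 0.77, 0.40, 0.46 and 0.71. The fits were tested on simulated data.

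Named genes are the lowest p or largest calls outside the study's list, the 8 highest and 8 lowest on it, up to 4 leading members of each gene list, genes the study names for chromium, and up to 5 calls per direction in other contrasts. Other genes in the text (Alb, Eno1, Me1, Nfe2l2, Pgam1, Plod1, Txnrd1, Ugdh) were named after their values were seen. The members, gene lists and tests were chosen with earlier results of these data known. Alternatives covered the block, the filter, the control arrays, the labels, centring, unmoderated variances and each left-out replicate. Columns of the study's list served only to check the order.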

Additional observations from a re-analysis of the deposited data

Results flagged for a closer look

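The change of Ankrd37 at chromium 1 µM had 1 replicate far from the others. It was -0.46, -0.54 and -0.53 in replicates 1 to 3 and -0.90 in replicate 4, and the gap to the nearest value made up 0.8292 of the whole range. It was the only one of 71 sets of 4 replicate changes looked at, of leading genes and of list medians, that passed the critical value of Dixon's test, where chance alone gives about 1 in 20.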

How the results depend on the processing

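Outside the study's list, chromium 1 µM against control had 2 calls. There were 0 calls without the replicate block, 0 with conditions as labelled and 0 with chromium 1 µM and control arrays alone in the fit. At the methods' threshold there were 0, and 0 to 0 with 1 replicate left out. A stricter filter on the mean also gave 0. It removed the Cryl1 and Cp probe sets before testing, so these were not retested there. There was 1 call, Cp, when p was adjusted over the probe sets outside the list alone, a choice made after seeing the data. This adjustment kept the other counts within 1.5 times. There was 1 call with the first control arrays alone, 1 with the second control arrays alone and 1 with arrays centred on their median. There were 44 calls with 8 separate control arrays and 6 with all 9 exposures in the fit, a setting chosen after seeing the data. The count stayed at 2 without a filter and with variances that were not moderated. Over the alternatives, fits with 1 replicate left out included, the adjusted p ran from 0.00532 to 0.991 for Cryl1 and from 0.00297 to 0.558 for Cp. The sign did not change. Replicates 1 and 2 alone had 1 call, and 3 with 4 separate control arrays. No replicate could be left out there, since no residual degrees of freedom remain. Chromium 1 against 0.275 µM had 0 calls throughout. Chromium 10 against 1 µM had 5214 calls, 3244 without the replicate block, 0 as labelled and 3127 to 4906 with 1 replicate left out, the lowest without replicate 3. Against nickel there were 484, 106 without the block, 0 as labelled and 130 to 306 with 1 left out, the lowest without replicate 3. Against cadmium there were 821, 127 without the block, 0 as labelled and 106 to 544 with 1 left out, the lowest without replicate 3. As labelled, 67 of 116 differences of named genes moved by more than the spread between replicates and 12 changed sign. With 1 replicate left out 8 of 464 moved. Of the list medians, 16 of 24 moved and 6 changed sign as labelled, 9 of 96 changed sign with 1 replicate left out and 3 of 24 with the first control arrays alone. Which mapping is right for each array was judged only by the check of condition means. The cause of these differences between settings was not tested. The number of arrays limits the precision.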
